A study of Homo sapiens with 12 samples.

Results

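The 46 genes described here carry out pyrimidine and purine nucleotide metabolism, and they were chosen by gene symbol out of the 63241 genes counted by RNA sequencing in 12 libraries. The cells are MDA-PCa-2b, an established line of human prostate carcinoma. The genes were sorted by role into 8 genes of de novo pyrimidine and CTP synthesis, 7 of deoxynucleotide and thymidylate synthesis, 8 of pyrimidine salvage and uptake, 5 of pyrimidine and dNTP breakdown, 12 of de novo purine synthesis and 6 of purine salvage and breakdown. After the filter on low counts, 45 of the 46 were among the 19373 genes tested. The one that did not pass was CDA, cytidine deaminase, which averaged 0.0337 CPM (counts scaled to library size) in KDR, 0.0883 in KD2, 0.136 in KD1 and 0.258 in NT. The lowest count of a tested member in any library was 20, for UPP1.

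Cells make pyrimidines de novo from glutamine, bicarbonate and aspartate: CAD builds dihydroorotate, DHODH on the inner mitochondrial membrane oxidises it to orotate while passing electrons to ubiquinone, and UMPS turns orotate into UMP. Purines are built stepwise on phosphoribosyl pyrophosphate up to IMP, which is then split towards AMP and GMP. Ribonucleotide reductase converts ribonucleotides of both kinds to deoxynucleotides, thymidylate synthase makes the thymidine nucleotide, and salvage kinases and nucleoside carriers recover bases and nucleosides that would otherwise be lost.

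The 4 groups of 3 libraries each are labelled KDR, the rescue of DHODH knock down 2; KD2, DHODH knock down 2; KD1, DHODH knock down 1; and NT. All are cells of the same line, grown per the labels in BRFF-HPC1 medium with 20% serum, and the growth protocol names both the 2b line and MDA-PCa-2a. What NT stands for, the knockdown construct and the way of rescue are not given in the labels, nor is it said whether the libraries of a group came from separate cultures. Library totals lay between 23786288 and 38240369 counts. The typical spread between replicates was a biological coefficient of variation of 5.53% in KDR, 7.16% in KD2, 6.61% in KD1 and 15.7% in NT. NT replicate 2 stood apart, and without it the spread in NT was 8.57%. All 8 markers of prostate luminal cells were present. Their summed level was 14632 to 15012 CPM in KDR and 10235 to 10530 CPM in KD2. It was 15382 to 15737 CPM in KD1 and 15252 to 18115 CPM in NT. Of these markers, 7 fell in KD2 against NT, where 18.2% of all genes tested fell. In KDR against KD2, 7 of them rose, where 15.3% of all genes tested rose. The summed fibroblast, immune and endothelial markers reached at most 5.12, 0.568 and 0.707 CPM in any library.

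Promoter windows of RefSeq on GRCh38.p14, each from 250 bases before to 50 bases after a start site, were found for 42 of the 46 genes; ADSL, IMPDH2, RRM2B and SLC29A2 had none in the table used. Below stand the 250 bases before the start site for the members that the results turn on most, 5′ to 3′ on the gene's own strand, with searched letters in capitals. RRM2 and TK1 each have another window, and the one with more matches is shown. RRM2 (chr2:10122489-10122738, plus strand) holds CCAAT, the box bound by NF-Y, at 123, 93 and 66 bases before the start site, and TK1 (chr17:78187053-78187302, minus strand) holds the same box on the other strand, ATTGG, at 77 and 46 bases before it. TYMS (chr18:657403-657652, plus strand) holds GCGGGAAA, an E2F site read from the other strand, at 39 bases before the start site. DHODH (chr16:72008494-72008743, plus strand) holds the E-box CACGTG at 159 and CCAAT at 22 bases before the start site.
RRM2: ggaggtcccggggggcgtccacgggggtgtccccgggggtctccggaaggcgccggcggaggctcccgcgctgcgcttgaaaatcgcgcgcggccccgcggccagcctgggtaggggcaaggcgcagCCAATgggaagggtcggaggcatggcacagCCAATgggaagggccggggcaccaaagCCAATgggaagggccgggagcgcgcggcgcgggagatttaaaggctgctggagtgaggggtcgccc
TK1: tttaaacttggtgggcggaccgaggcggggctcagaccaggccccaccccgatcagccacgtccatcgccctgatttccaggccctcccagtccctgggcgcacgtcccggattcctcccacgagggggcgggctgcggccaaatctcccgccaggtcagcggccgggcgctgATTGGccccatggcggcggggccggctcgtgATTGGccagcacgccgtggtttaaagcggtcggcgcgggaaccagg
TYMS: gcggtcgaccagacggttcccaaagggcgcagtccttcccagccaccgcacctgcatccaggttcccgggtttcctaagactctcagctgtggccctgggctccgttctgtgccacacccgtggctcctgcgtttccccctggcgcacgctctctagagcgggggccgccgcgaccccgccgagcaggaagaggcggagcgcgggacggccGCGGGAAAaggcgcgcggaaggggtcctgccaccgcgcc
DHODH: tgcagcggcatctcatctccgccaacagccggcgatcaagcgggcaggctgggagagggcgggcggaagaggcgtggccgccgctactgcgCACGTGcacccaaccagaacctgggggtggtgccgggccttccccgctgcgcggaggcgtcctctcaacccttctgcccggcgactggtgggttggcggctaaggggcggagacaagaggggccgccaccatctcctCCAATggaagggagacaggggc

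The purine genes PPAT and PAICS lie head to head on chromosome 4, with start sites 137 bases apart for the nearest of 3 PAICS windows, which shares 236 bases with that of PPAT. The other PAICS start sites lie 645 and 25108 bases from that of PPAT, and their windows share none. They are shown because both were called in the same direction, as given further on. The 136 bases between both start sites (chr4:56435616-56435751, written on the plus strand, the strand of PAICS) are 75% G and C and hold none of the searched letters. The E-box CACGTG that both windows share lies 40 bases after the PAICS start site and 182 bases before that of PPAT.
PPAT and PAICS: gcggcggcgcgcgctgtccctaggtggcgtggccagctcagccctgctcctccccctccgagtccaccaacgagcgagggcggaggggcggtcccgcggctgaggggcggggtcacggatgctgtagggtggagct

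Over all windows of a gene and both strands, an E2F site (TTTCCCGC, TTTGGCGC, TTTCGCGC or TTTGCCGC) was found for 6 of the 42 genes, or 14.3%, and for 3.99% of the 27305 genes in the table. These were TYMS, DUT, DCK, GART, PRPS2 and CDA. The E-box CACGTG was found for 8 of 42 (19.0%) and for 8.77% of all genes, and CCAAT for 15 of 42 (35.7%) and 39.7% of all genes. At least 3 CCAAT boxes in a window, as in RRM2, were found for 3.92% of all genes. These matches describe letters, and no test was made on them.

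DHODH RNA was not lower in the libraries labelled as its knockdowns. DHODH (ENSG00000102967, chr16:72008588-72027664) had 18.9, 19.2 and 17.5 CPM in the KDR libraries and 11.4, 13.0 and 14.9 CPM in the KD2 libraries. In KD1 it had 11.0, 10.4 and 9.63 CPM, and in NT 9.19, 13.4 and 8.95 CPM. The 3 KDR libraries lay above all others, KD2 lay above KD1, and the NT range overlapped with both KD2 and KD1. DHODH was higher in KDR than in KD2 by 0.51 ± 0.14 on the log2 scale (SE, edgeR quasi-likelihood test with Benjamini-Hochberg adjusted p = 0.0064; 0.41 and adjusted p = 0.052 without KD2 replicate 1). Set against NT, its log2 fold change was 0.82 ± 0.14 in KDR (adjusted p = 1.0e-04), 0.31 ± 0.14 in KD2 (adjusted p = 0.097) and -0.03 ± 0.14 in KD1 (adjusted p = 0.97). Without NT replicate 2, which was the highest of its group, KD2 stood 0.52 above NT (adjusted p = 0.0014). Each direction below therefore belongs to a label of libraries, and no loss of DHODH RNA was measured.

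In the libraries labelled KD2, 24 of the 45 members tested (53.3%) rose against NT and 2 (4.44%) fell, where 17.8% of all genes tested rose, 18.2% fell and 35.9% were called. RRM2, a subunit of ribonucleotide reductase, rose most, at 5.06-fold, followed by thymidine kinase TK1 at 2.84-fold, and the other 22 that rose had log2 fold changes of 0.22 to 0.81. UCK1 and PRPS1 were the members that fell. Members are mostly well expressed: 39 had a mean of at least 10 CPM, of which 22 (56.4%) rose, against 24.8% of the 9839 genes of that level. The median log2 fold change was 0.29 over the members and -0.01 over all genes tested. Without NT replicate 2, 28 members rose and 3 fell. Of all genes tested, 3794 then rose and 3788 fell, against 3439 and 3519 in the main fit. The counts by class in KD2 against NT given below stand beside the same 17.8% of all genes that rose and 18.2% that fell.

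In KDR against KD2, 20 of 45 members (44.4%) fell and 4 (8.89%) rose, where 17.1% of all genes fell, 15.3% rose and 32.4% were called. The 4 that rose were DHODH, ADSS2, PRPS1 and UCK1. The median log2 fold change was -0.23 over the members and 0.02 over all genes. In KDR against NT, 10 members (22.2%) were higher and 2 (4.44%) lower, where 13.0% of all genes were higher, 14.5% lower and 27.5% called, so that the share of members called in either direction, 26.7%, was near that of all genes. The 3 comparisons among KDR, KD2 and NT share libraries, so their calls are given side by side and not as separate evidence.

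**Figure D1:**
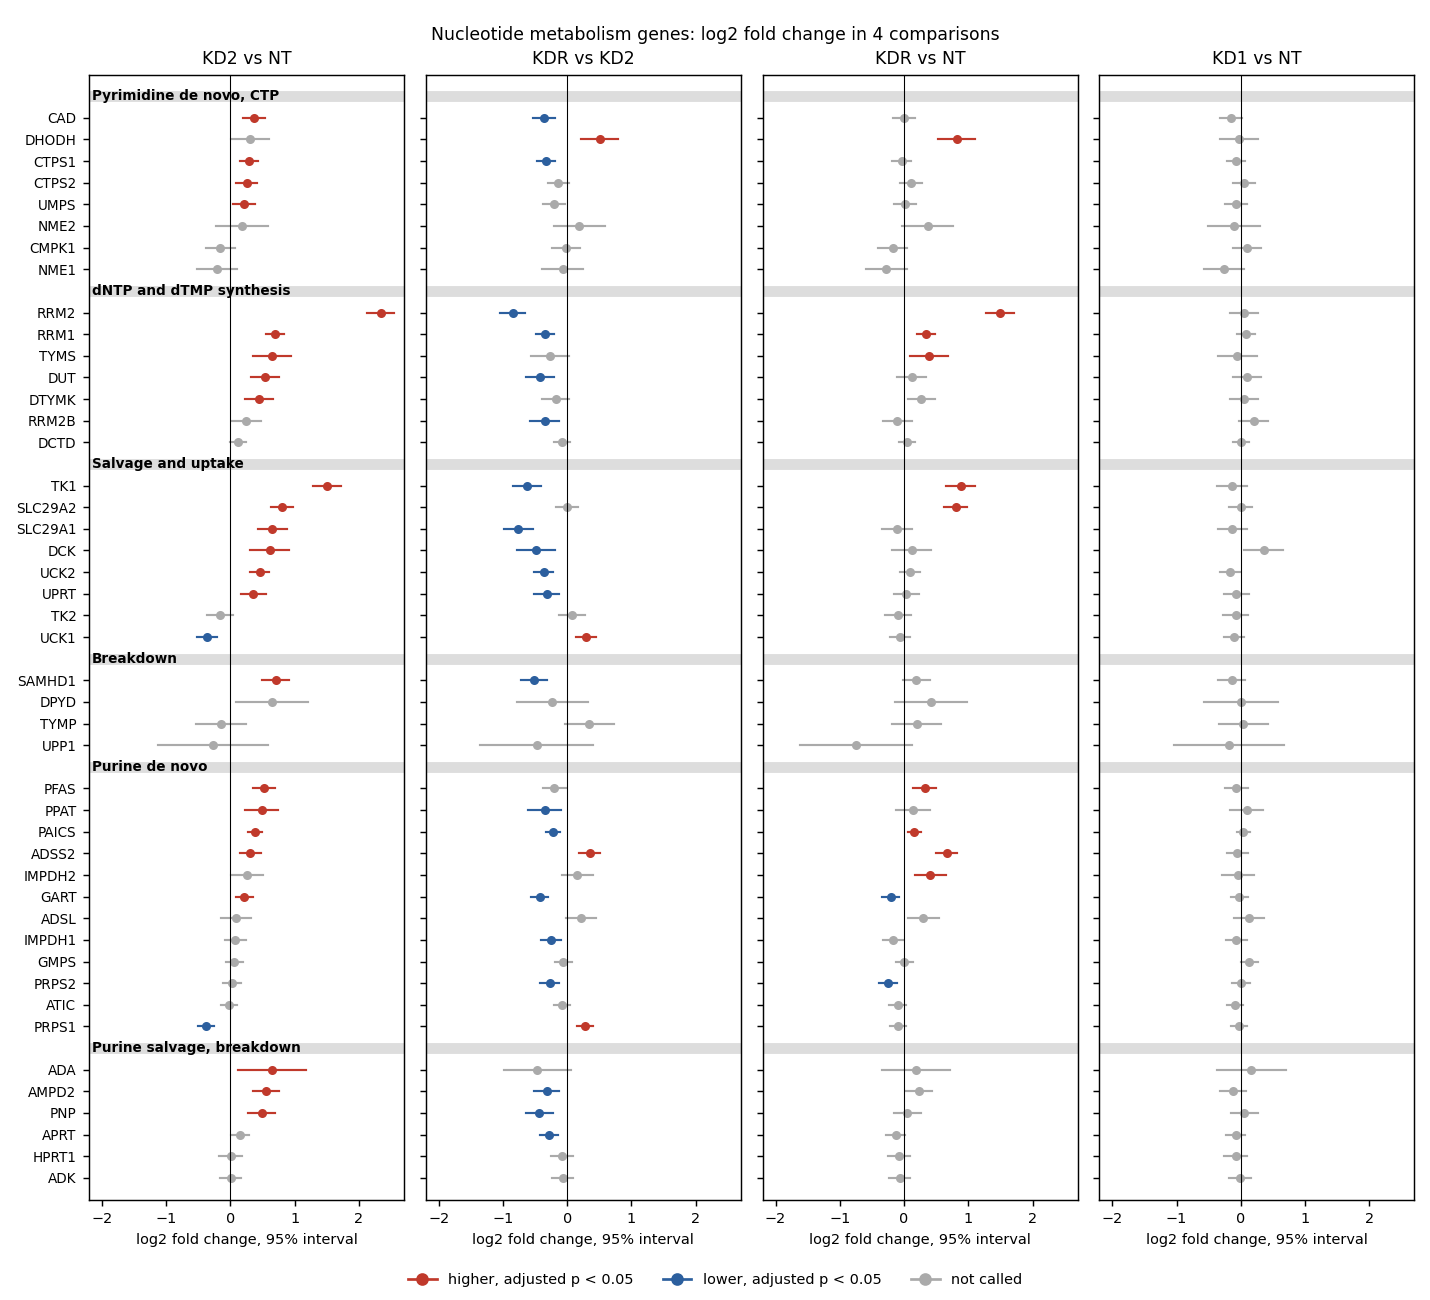
Log2 fold change (horizontal axis, point) with its 95% interval (line) for the 45 tested genes of nucleotide metabolism, grouped by role and ordered by KD2 against NT, in 4 comparisons. Red marks higher and blue lower at adjusted p under 0.05; the points for RRM2 (2.34) and TK1 (1.50) stand farthest right in KD2 against NT, and no gene is coloured in KD1 against NT.

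Of the 8 genes of de novo pyrimidine and CTP synthesis, 4 rose and none fell in KD2 against NT: CAD, UMPS, CTPS1 and CTPS2. CAD (ENSG00000084774, chr2:27217369-27243943), which carries the activities before DHODH, had 128, 131 and 119 CPM in KDR and 155, 168 and 162 CPM in KD2. It had 122, 109.5 and 109 CPM in KD1 and 115, 148 and 113 CPM in NT. The KD2 libraries lay above all others, with NT replicate 2 nearest. CAD was 0.36 ± 0.08 higher in KD2 than in NT on the log2 scale (SE, adjusted p = 0.0011) and lower in KDR than in KD2 (-0.36 ± 0.08, adjusted p = 0.0014), and KDR stood at 0.00 to NT (adjusted p = 0.99).

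UMPS (ENSG00000114491, chr3:124730433-124749273), which completes UMP, had 25.2, 28.0 and 28.1 CPM in KDR and 32.4, 30.1 and 31.1 CPM in KD2. It had 26.2, 25.0 and 25.6 CPM in KD1 and 27.3, 25.6 and 27.9 CPM in NT. All KD2 libraries were the highest, by a narrow margin. UMPS rose by 0.22 ± 0.08 in KD2 over NT (adjusted p = 0.046), a call lost in 8 of 12 alternatives. It was lost when NT replicate 1 (adjusted p = 0.068), NT replicate 2 (0.11) or any one KD2 library (0.06 to 0.15) was left out. In KDR against KD2 its log2 fold change was -0.21 ± 0.08 (adjusted p = 0.058).

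CTPS1 (ENSG00000171793, chr1:40979300-41012565) encodes a CTP synthase. It had 58.8, 59.9 and 62.1 CPM in KDR and 76.6, 76.0 and 73.9 CPM in KD2. In KD1 it had 56.6, 57.3 and 62.0 CPM and in NT 56.9, 65.0 and 63.7 CPM. KD2 stood clear of the other groups, which overlapped. The log2 fold change was 0.29 ± 0.07 in KD2 against NT (adjusted p = 0.0019) and -0.33 ± 0.07 in KDR against KD2 (adjusted p = 7.3e-04). Its paralog CTPS2 averaged 40.0 ± 2.97 CPM in KDR, 44.0 ± 1.49 in KD2, 38.2 ± 2.14 in KD1 and 37.0 ± 2.74 in NT (SD, n = 3 each). The rise of CTPS2 in KD2 over NT (0.25 ± 0.08, adjusted p = 0.018) was lost without KD2 replicate 3 (adjusted p = 0.068) or NT replicate 1 (0.067).

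The kinases that make the di- and triphosphates were not called in KD2 against NT. CMPK1, UMP-CMP kinase, averaged 140.1 ± 2.48 CPM in KDR, 142 ± 9.72 in KD2, 169 ± 2.58 in KD1 and 158 ± 39.0 in NT (SD, n = 3 each). NT replicate 2 held 116 CPM of it against 167 and 192 CPM in the other NT libraries. Without that library CMPK1 was lower than NT by a log2 fold change of -0.37 in KDR (adjusted p = 4.9e-07) and -0.34 in KD2 (adjusted p = 1.3e-06). The nucleoside diphosphate kinases NME1 and NME2 share 18.7% and 24.2% of their exon bases with a readthrough gene, so reads there were not counted for either, and their levels are uncertain.

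**Figure D2:**
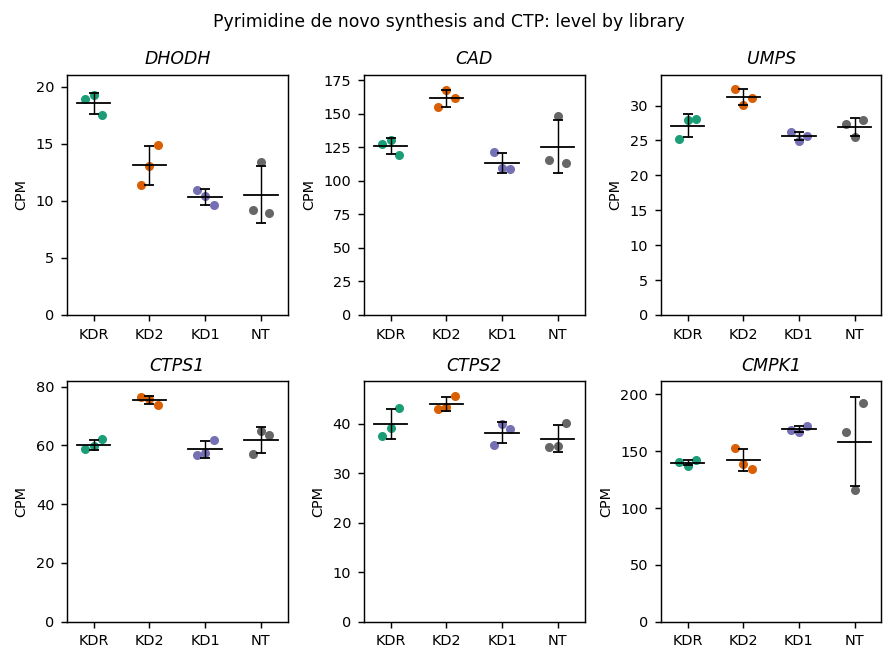
Level in CPM (vertical axis, from 0) of 6 genes of pyrimidine and CTP synthesis in each library, by group, with the mean and SD over 3 libraries. The KDR points of DHODH (17.5 to 19.2) lie above all others, the KD2 points of CAD, UMPS and CTPS1 are the highest of those genes, and 1 NT point of CMPK1 lies apart at 116.

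In deoxynucleotide and thymidylate synthesis, 5 of 7 genes were higher and none lower in KD2 against NT: RRM2, RRM1, TYMS, DUT and DTYMK. RRM2 (ENSG00000171848, chr2:10120698-10211725) encodes the small subunit of ribonucleotide reductase made in S phase. It had 27.4, 28.6 and 29.6 CPM in KDR and 48.6, 51.5 and 53.8 CPM in KD2. It had 11.7, 10.1 and 9.68 CPM in KD1 and 8.88, 10.3 and 11.3 CPM in NT. The KD2 libraries were highest, the KDR libraries lay between them and the rest with no overlap, and KD1 and NT overlapped. On the log2 scale the difference was 2.34 ± 0.10 in KD2 against NT (adjusted p = 2.1e-14), -0.85 ± 0.09 in KDR against KD2 (adjusted p = 2.5e-07) and 1.49 ± 0.10 in KDR against NT (adjusted p = 1.6e-10).

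RRM1 (ENSG00000167325, chr11:4094707-4138932), the large subunit that carries the active site, had 57.9, 58.3 and 59.0 CPM in KDR and 74.6, 77.3 and 71.3 CPM in KD2. In KD1 it had 47.5, 51.8 and 47.2 CPM, and in NT 46.3, 47.0 and 45.2 CPM. The order of the groups was that of RRM2, with KD2 above KDR and KDR above both others. RRM1 was 0.69 ± 0.07 higher in KD2 than in NT (adjusted p = 2.4e-08), stood at -0.35 ± 0.07 in KDR against KD2 (adjusted p = 2.6e-04) and was 0.34 ± 0.07 higher in KDR than in NT (adjusted p = 5.3e-04).

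RRM2B is the alternative small subunit, which is induced by p53 and serves cells outside S phase. It averaged 169.9 ± 4.09 CPM in KDR, 217 ± 12.9 in KD2, 209.9 ± 7.16 in KD1 and 183 ± 45.9 in NT, where replicate 2 held 129.9 CPM against 209 CPM in each other library. In KD2 against NT its log2 fold change was 0.25 ± 0.11 (adjusted p = 0.086), and it was called without the filter on low counts (5.8e-04) or without NT replicate 1 (0.36, adjusted p = 0.019) or NT replicate 3 (0.36, adjusted p = 0.017). Without NT replicate 2 the value was 0.05 (adjusted p = 0.43). In KDR against KD2 it was -0.35 ± 0.11 (adjusted p = 0.016), a call lost without KD2 replicate 1 (0.077) or KDR replicate 1 (0.061) and with DESeq2 (0.07). Without NT replicate 2, KDR was below NT by a log2 fold change of -0.31 (adjusted p = 1.2e-06). Per kilobase of exon, RRM2B exceeded RRM2 in all libraries: the ratio of RRM2 to RRM2B was 0.0973 to 0.100 in KDR, 0.124 to 0.152 in KD2, 0.0264 to 0.0341 in KD1 and 0.0250 to 0.0468 in NT. Reads shared with pseudogenes of RRM2 were not counted, so the RRM2 level may be too low and the size of this ratio is uncertain. In CPM, before scaling to exon length, RRM2B was also the higher in all libraries.

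TYMS (ENSG00000176890, chr18:657653-673578), thymidylate synthase, had 8.69, 9.03 and 10.1 CPM in KDR and 11.6, 10.4 and 11.5 CPM in KD2. It had 7.25, 5.32 and 7.78 CPM in KD1 and 7.14, 7.27 and 6.86 CPM in NT. KD2 and KDR did not overlap with each other or with NT. The fold change on the log2 scale was 0.65 ± 0.14 in KD2 against NT (adjusted p = 8.0e-04), -0.27 ± 0.14 in KDR against KD2 (adjusted p = 0.15) and 0.38 ± 0.14 in KDR against NT (adjusted p = 0.048). The last call was lost in 10 of 12 alternatives, including each that left out a KDR or NT library (adjusted p = 0.055 to 0.18). TYMS shares 47.9% of its exon bases with genes on the opposite strand, mostly ENOSF1. The counting used no strand, so only part of its reads could be assigned and its level is uncertain. ENOSF1 itself averaged 101 ± 4.09 CPM in KDR, 67.9 ± 2.77 in KD2, 78.2 ± 3.64 in KD1 and 81.9 ± 5.81 in NT, which is not the order of TYMS.

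DUT, which hydrolyses dUTP, rose by 0.54 ± 0.11 in KD2 over NT (adjusted p = 3.3e-04) and stood at -0.42 ± 0.11 in KDR against KD2 (adjusted p = 0.0037). DTYMK, thymidylate kinase, rose by 0.45 ± 0.10 in KD2 over NT (adjusted p = 0.0014) and stood at -0.18 ± 0.10 in KDR against KD2 (adjusted p = 0.19). DCTD, dCMP deaminase, averaged 113 ± 5.87 CPM in KDR, 119.5 ± 4.18 in KD2, 110.4 ± 1.71 in KD1 and 109.9 ± 5.73 in NT (SD, n = 3 each). It was not called in any comparison of the main fit. Without NT replicate 2, DCTD was called higher in KD2 than in NT (0.16, adjusted p = 0.014).

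**Figure D3:**
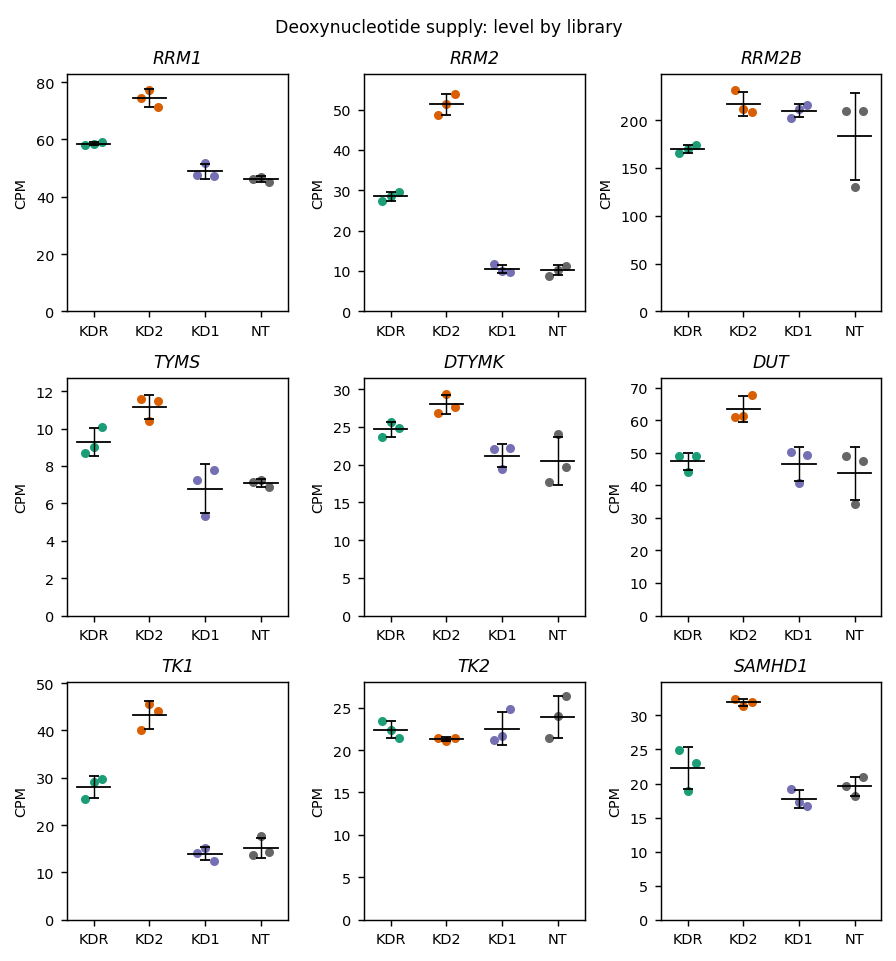
Level in CPM (vertical axis, from 0) of 9 genes of deoxynucleotide supply in each library, by group, with the mean and SD over 3 libraries. RRM2, RRM1 and TK1 step down from KD2 through KDR to NT, RRM2B and TK2 do not, and NT replicate 2 is the low NT point of RRM2B (129.9) and DUT (34.4).

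Pyrimidine salvage and uptake had 6 of 8 genes higher and 1 lower in KD2 against NT. TK1 (ENSG00000167900, chr17:78174091-78187233), the cytosolic thymidine kinase of S phase, had 25.4, 29.1 and 29.8 CPM in KDR and 40.0, 45.6 and 44.1 CPM in KD2. It had 14.0, 15.2 and 12.5 CPM in KD1 and 13.8, 17.7 and 14.3 CPM in NT. As for RRM2, KD2 lay above KDR and KDR above the other groups without overlap. Its log2 fold change was 1.50 ± 0.11 in KD2 against NT (adjusted p = 1.3e-10), -0.62 ± 0.10 in KDR against KD2 (adjusted p = 5.4e-05) and 0.88 ± 0.11 in KDR against NT (adjusted p = 1.4e-06). Mitochondrial TK2 averaged 22.4 ± 1.03 CPM in KDR, 21.3 ± 0.195 in KD2, 22.5 ± 1.97 in KD1 and 23.9 ± 2.49 in NT and was not called. Per kilobase of exon TK1 thus stood at 6.07 to 7.80 times TK2 in KDR, 10.5 to 12.1 times in KD2, 2.82 to 3.94 times in KD1 and 3.03 to 4.13 times in NT. TK2 shares 20.1% of its exon bases with other genes, where reads were not counted for it. Its level and the size of this ratio are therefore uncertain. In CPM, before scaling to exon length, TK1 was below TK2 in KD1 and NT.

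The nucleoside carriers parted in the KDR libraries. SLC29A1 (ENSG00000112759, chr6:44219553-44234142), the equilibrative carrier ENT1, had 34.8, 36.5 and 30.3 CPM in KDR and 59.1, 55.4 and 57.6 CPM in KD2. It had 35.0, 32.5 and 32.5 CPM in KD1 and 32.6, 45.8 and 30.9 CPM in NT. KD2 stood alone above the other groups, and NT replicate 2 was the next highest library. SLC29A1 rose by 0.65 ± 0.11 in KD2 over NT (adjusted p = 5.0e-05), with a log2 change of -0.76 ± 0.11 in KDR against KD2 (adjusted p = 9.8e-06). KDR stood at -0.11 ± 0.11 against NT (adjusted p = 0.53).

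SLC29A2 (ENSG00000174669, chr11:66362521-66372214), the carrier ENT2, had 62.4, 64.4 and 60.6 CPM in KDR and 61.2, 60.5 and 66.3 CPM in KD2. It had 34.7, 36.7 and 35.9 CPM in KD1 and 34.0, 41.5 and 31.9 CPM in NT. KDR and KD2 overlapped, and both lay above KD1 and NT. The log2 fold change was 0.81 ± 0.08 in KD2 against NT (adjusted p = 7.6e-08), 0.80 ± 0.08 in KDR against NT (adjusted p = 1.6e-07) and 0.00 in KDR against KD2 (95% interval -0.17 to 0.17, adjusted p = 0.99). Per kilobase of exon, SLC29A1 stood at 0.316 to 0.359 of SLC29A2 in KDR, 0.550 to 0.612 in KD2, 0.560 to 0.639 in KD1 and 0.608 to 0.699 in NT, so that the KDR libraries lay below all others.

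The uridine-cytidine kinases moved in opposite directions. UCK2 averaged 45.8 ± 0.282 CPM in KDR, 59.0 ± 2.05 in KD2, 38.3 ± 2.32 in KD1 and 42.9 ± 1.70 in NT (SD, n = 3 each), a rise of 0.46 ± 0.07 in KD2 over NT (adjusted p = 2.1e-05). UCK1 averaged 61.6 ± 2.65 CPM in KDR, 50.1 ± 2.93 in KD2, 59.9 ± 2.86 in KD1 and 64.5 ± 5.30 in NT, and fell in KD2 against NT (log2 -0.36 ± 0.08, adjusted p = 5.0e-04). In KDR against KD2, UCK2 stood at -0.36 ± 0.07 on the log2 scale (adjusted p = 3.4e-04) and UCK1 at 0.30 ± 0.08 (adjusted p = 0.0038). Per kilobase of exon, UCK1 stood at 3.33 to 3.60 times UCK2 in KDR, 1.98 to 2.35 times in KD2, 3.79 to 4.42 times in KD1 and 3.54 to 4.31 times in NT.

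DCK, which phosphorylates deoxycytidine and activates several nucleoside drugs, and UPRT, named as a uracil salvage enzyme, also rose in KD2 over NT, by 0.61 ± 0.14 (adjusted p = 0.0019) and 0.36 ± 0.10 (adjusted p = 0.0046). NT replicate 2 held 12.4 CPM of DCK against 20.7 and 21.9 CPM in the other NT libraries, and KD2 held 26.6 to 29.6 CPM. Without NT replicate 2 the rise of DCK was 0.39 (adjusted p = 0.0021). Both genes were lower in KDR than in KD2, with log2 fold changes of -0.49 ± 0.14 for DCK (adjusted p = 0.011, 0.051 without KD2 replicate 1 and 0.052 without KDR replicate 1) and -0.32 ± 0.09 for UPRT (adjusted p = 0.011, 0.071 without KDR replicate 3).

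Of the breakdown genes, SAMHD1 alone was called in KD2 against NT among the 4 tested. SAMHD1 (ENSG00000101347, chr20:36890229-36951893), which cleaves deoxynucleoside triphosphates, had 24.9, 19.0 and 23.0 CPM in KDR and 32.4, 31.4 and 31.9 CPM in KD2. It had 19.1, 17.3 and 16.7 CPM in KD1 and 19.7, 18.1 and 20.9 CPM in NT. KD2 lay above all other libraries, and KDR overlapped with NT. On the log2 scale the difference was 0.71 ± 0.10 in KD2 against NT (adjusted p = 7.0e-06) and -0.52 ± 0.10 in KDR against KD2 (adjusted p = 3.3e-04). SAMHD1 therefore rose in the same libraries as the genes that make deoxynucleotides. DPYD, which starts uracil breakdown, stood at 0.65 ± 0.27 in KD2 against NT (adjusted p = 0.066), TYMP at -0.14 ± 0.19 (adjusted p = 0.6) and UPP1 at -0.28 ± 0.41 (adjusted p = 0.66), all at means under 10 CPM.

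De novo purine synthesis had 5 of 12 genes higher and 1 lower in KD2 against NT. The genes that rose were PPAT, which commits the path, PFAS, PAICS and GART, which build the ring, and ADSS2, which leads from IMP towards AMP. PFAS (ENSG00000178921, chr17:8247618-8270491) had 35.4, 34.8 and 37.8 CPM in KDR and 40.0, 41.1 and 42.9 CPM in KD2. It had 27.9, 29.7 and 24.6 CPM in KD1 and 26.5, 29.7 and 30.0 CPM in NT. KD2 and KDR lay above both other groups. The fold change on the log2 scale was 0.52 ± 0.09 in KD2 against NT (adjusted p = 3.7e-05), -0.20 ± 0.08 in KDR against KD2 (adjusted p = 0.076) and 0.32 ± 0.09 in KDR against NT (adjusted p = 0.0067).

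PPAT (ENSG00000128059, chr4:56393362-56435615) had 41.3, 35.5 and 39.1 CPM in KDR and 50.6, 49.7 and 47.7 CPM in KD2. It had 35.3, 36.0 and 40.5 CPM in KD1 and 38.7, 24.9 and 41.9 CPM in NT. KD2 lay above all others, and NT replicate 2 was the lowest library. PPAT rose by 0.49 ± 0.12 in KD2 over NT (adjusted p = 0.0033; 0.29 and adjusted p = 0.0029 without NT replicate 2) and stood at -0.35 ± 0.12 in KDR against KD2 (adjusted p = 0.033), a call lost without any one KD2 library, KDR replicate 2 or KDR replicate 3 (adjusted p = 0.054 to 0.14). Its head-to-head neighbour PAICS, shown with it above, averaged 280.3 ± 4.72 CPM in KDR, 327 ± 12.1 in KD2, 257 ± 7.21 in KD1 and 251 ± 5.96 in NT. PAICS rose by 0.38 ± 0.05 in KD2 over NT (adjusted p = 1.9e-06) and stood at -0.22 ± 0.05 in KDR against KD2 (adjusted p = 0.0013).

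GART (ENSG00000159131, chr21:33503931-33543491), which carries out several steps of ring building, had 65.7, 68.0 and 68.8 CPM in KDR and 90.5, 91.6 and 90.3 CPM in KD2. It had 79.3, 72.7 and 78.2 CPM in KD1 and 72.9, 82.0 and 79.3 CPM in NT. KD2 was the highest group and KDR the lowest, with no overlap of either with NT. Its log2 fold change was 0.22 ± 0.06 in KD2 against NT (adjusted p = 0.0099, 0.056 without NT replicate 1), -0.43 ± 0.06 in KDR against KD2 (adjusted p = 1.6e-05) and -0.21 ± 0.06 in KDR against NT (adjusted p = 0.018, 0.083 without KDR replicate 1).

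ADSS2 went further up in KDR: it averaged 70.5 ± 4.59 CPM in KDR, 55.3 ± 3.36 in KD2, 42.8 ± 3.26 in KD1 and 44.5 ± 2.45 in NT (SD, n = 3 each). It rose by 0.31 ± 0.08 in KD2 over NT (adjusted p = 0.0032) and by a further 0.35 ± 0.08 in KDR over KD2 (adjusted p = 0.0012). The synthetases of phosphoribosyl pyrophosphate, the shared starting material, differed from each other. PRPS1 averaged 96.2 ± 2.75 CPM in KDR, 79.1 ± 3.02 in KD2, 101 ± 0.0974 in KD1 and 103 ± 3.90 in NT, and fell in KD2 against NT (log2 -0.38 ± 0.06, adjusted p = 1.9e-05). PRPS2 averaged 66.0 ± 4.41 CPM in KDR, 79.8 ± 2.61 in KD2, 78.7 ± 4.60 in KD1 and 78.5 ± 2.85 in NT, and was lower in KDR than in KD2 (-0.28 ± 0.07, adjusted p = 0.0033). Per kilobase of exon, PRPS1 stood at 1.14 to 1.24 times PRPS2 in KDR, 0.765 to 0.869 times in KD2, 0.981 to 1.09 times in KD1 and 1.01 to 1.16 times in NT.

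The steps from IMP to GMP showed no call in KD2 against NT in the main fit. Without NT replicate 2, IMPDH1 (0.19, adjusted p = 0.0031) and IMPDH2 (0.37, adjusted p = 0.016) were called higher in KD2 than in NT. IMPDH1 averaged 124 ± 5.72 CPM in KDR, 147 ± 6.16 in KD2, 133 ± 5.45 in KD1 and 139 ± 19.7 in NT, and GMPS stood at 0.06 ± 0.06 in KD2 against NT (adjusted p = 0.51). IMPDH1 was lower in KDR than in KD2 (log2 -0.25 ± 0.08, adjusted p = 0.015, 0.066 without KD2 replicate 3 and 0.072 without KDR replicate 3). IMPDH2 averaged 16.6 ± 0.665 CPM in KDR, 14.9 ± 0.419 in KD2, 12.1 ± 1.18 in KD1 and 12.5 ± 2.01 in NT and was higher in KDR than in NT by 0.41 ± 0.12 (adjusted p = 0.012, 0.081 without NT replicate 3 and 0.051 without KDR replicate 2). A same-strand gene overlaps 1680 of the 5123 exon bases of IMPDH2, where reads were not counted for it, so that its level is uncertain and its ratio to IMPDH1 is not read. ADSL, with 11.1% shared bases, and ATIC were not called in KD2 against NT (0.09 ± 0.11 and -0.02 ± 0.06).

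Purine salvage and breakdown had 3 of 6 genes higher and none lower in KD2 against NT. AMPD2 (ENSG00000116337, chr1:109616104-109632051), an AMP deaminase, had 68.2, 63.2 and 63.9 CPM in KDR and 76.4, 80.5 and 87.4 CPM in KD2. It had 51.2, 52.3 and 49.5 CPM in KD1 and 48.1, 67.8 and 50.3 CPM in NT. KD2 lay above all others, and NT replicate 2 lay within the KDR range. AMPD2 rose by 0.56 ± 0.10 in KD2 over NT (adjusted p = 6.7e-05) and stood at -0.32 ± 0.09 in KDR against KD2 (adjusted p = 0.011, 0.063 without KD2 replicate 3 and 0.051 without KDR replicate 2). Without NT replicate 2 it was also higher in KDR than in NT, by 0.40 (adjusted p = 7.4e-06), against 0.23 and an adjusted p of 0.075 with it.

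PNP (ENSG00000198805, chr14:20461992-20477094), purine nucleoside phosphorylase, had 28.7, 25.7 and 28.2 CPM in KDR and 35.5, 39.3 and 36.9 CPM in KD2. It had 25.9, 30.5 and 26.7 CPM in KD1 and 24.7, 31.4 and 23.6 CPM in NT. KD2 was clear of the other groups. The log2 fold change was 0.49 ± 0.10 in KD2 against NT (adjusted p = 5.6e-04) and -0.43 ± 0.10 in KDR against KD2 (adjusted p = 0.0019).

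ADA (ENSG00000196839, chr20:44584896-44652252), adenosine deaminase, had 3.22, 2.97 and 2.23 CPM in KDR and 5.05, 3.68 and 2.84 CPM in KD2. It had 3.36, 2.74 and 2.21 CPM in KD1 and 2.02, 3.11 and 2.29 CPM in NT. KD2 and NT overlapped. Its log2 fold change of 0.65 ± 0.25 in KD2 against NT had an adjusted p that rounds to 0.05 and lay just under the threshold, and the call was lost in 8 of 12 alternatives (adjusted p up to 0.31, with a log2 fold change of 0.40, without KD2 replicate 1). The salvage enzymes HPRT1, APRT and ADK were not called in KD2 against NT, with log2 fold changes of 0.00 ± 0.09, 0.15 ± 0.07 and 0.00 ± 0.08. APRT had 144, 139.8 and 148 CPM in KDR and 176, 168 and 181 CPM in KD2, and was lower in KDR (-0.28 ± 0.07, adjusted p = 0.0027). In KD1 it had 148.5, 149 and 149 CPM, and in NT 146, 180.5 and 146 CPM. Without NT replicate 2, APRT was called higher in KD2 than in NT (0.26, adjusted p = 1.5e-05). It was also higher in KD2 than in KD1 (0.23 ± 0.07, adjusted p = 0.01), a call lost in 1 of 12 alternatives.

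**Figure D4:**
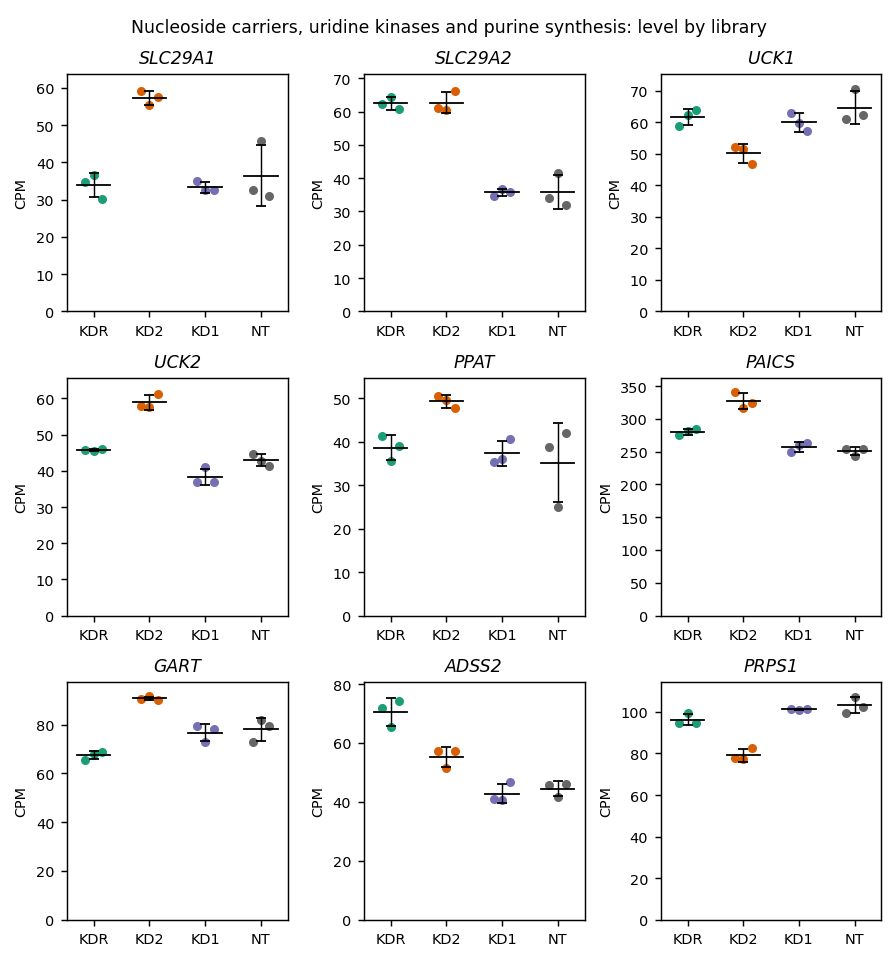
Level in CPM (vertical axis, from 0) of 9 genes of nucleoside uptake, uridine phosphorylation and purine synthesis in each library, by group, with the mean and SD over 3 libraries. SLC29A1 is back at the NT level in KDR while SLC29A2 is not (62.5 CPM in KDR, 35.8 in NT), UCK1 and PRPS1 dip in KD2, and ADSS2 is highest in KDR.

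Set side by side, 16 of 27 tested pyrimidine and deoxynucleotide genes rose and 1 fell in KD2 against NT (median 0.36), and 8 of 18 purine genes rose and 1 fell (median 0.18). Of all genes tested, 17.8% rose and 18.2% fell in that comparison. In KDR against KD2, 12 of the 27 fell and 2 rose (median -0.27), and 8 of the 18 fell and 2 rose (median -0.21), where 17.1% of all genes fell and 15.3% rose. The summed level of the pyrimidine and deoxynucleotide genes was 1204 to 1229 CPM in KDR, 1437 to 1462 in KD2, 1158 to 1176 in KD1 and 1113 to 1196 in NT. That of the purine genes was 1339 to 1353 CPM in KDR, 1488 to 1520.3 in KD2, 1311 to 1332 in KD1 and 1299 to 1382 in NT. KD2 stood above the other groups in both sums, and no test of pyrimidine against purine genes was made. As a share of all counts, the 46 genes took 0.259% to 0.261% in KDR, 0.286% to 0.292% in KD2, 0.250% to 0.252% in KD1 and 0.244% to 0.256% in NT.

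Markers of S phase and mitosis moved with these genes. Of 20 such markers, 19 rose and none fell in KD2 against NT (median 1.21), 17 fell and none rose in KDR against KD2 (median -0.58), 17 were higher in KDR than in NT (median 0.60), and none was called in KD1. Of all genes tested, 17.8% rose in KD2 against NT, 17.1% fell in KDR against KD2 and 13.0% were higher in KDR than in NT. Their summed level was 794 to 819 CPM in KDR, 1231 to 1255 in KD2, 543 to 569 in KD1 and 553 to 582 in NT. MKI67, a proliferation antigen, ran from 47.5 to 48.3 CPM in KDR, 97.7 to 103 in KD2, 20.2 to 23.8 in KD1 and 20.7 to 22.9 in NT. TOP2A, a topoisomerase of dividing cells, averaged 73.3 ± 2.18 CPM in KDR, 171 ± 7.53 in KD2, 39.6 ± 2.47 in KD1 and 38.7 ± 3.31 in NT (SD, n = 3 each). PCNA, the sliding clamp of DNA replication, rose by 0.41 ± 0.06 in KD2 over NT (adjusted p = 8.9e-06). Their part in the changes of the nucleotide genes was not tested. In bulk libraries a larger share of cells in S phase and more RNA per cell cannot be told apart.

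**Figure D5:**
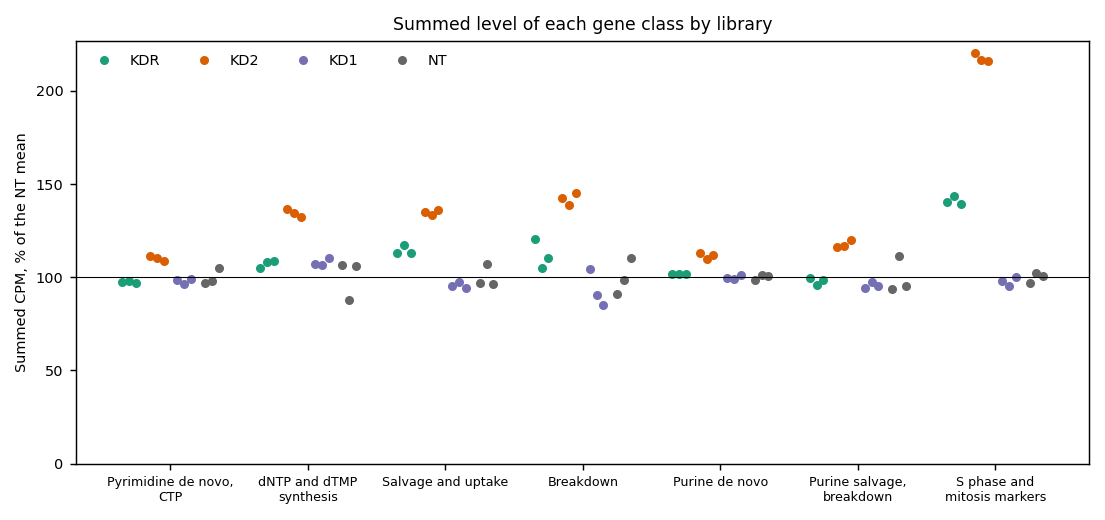
Summed CPM of each gene class and of 20 S phase and mitosis markers in each library, as a percentage of the NT mean (vertical axis, from 0), by group. The KD2 points lie at 132% to 136% for dNTP and dTMP synthesis, 109.9% to 113% for purine de novo synthesis, and 216% to 220.2% for the markers. For dNTP and dTMP synthesis NT replicate 2 is the lowest point (87.8%) and lowers the NT mean. There the KD1 points lie at 106.6% to 110.4% and the KDR points at 104.9% to 108.8%. The KDR points lie between KD2 and NT for salvage and uptake (113% to 117%) and for the markers (139% to 144%).

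The libraries labelled KD1 differed from NT in none of the 45 members, where 0% of all genes were called (edgeR; 0 by DESeq2 and 23 genes without the filter on low counts). At an unadjusted p under 0.05 there were 2 members, DCK (0.35 ± 0.15, adjusted p = 0.79) and UCK2 (-0.17 ± 0.07, adjusted p = 0.79), and 1185 genes. The median log2 fold change was -0.03 over the members. For RRM2 the 95% interval in KD1 against NT was -0.17 to 0.27, and for TK1 it was -0.37 to 0.10, which lie below their log2 fold changes in KD2.

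Tested directly, KD2 differed from KD1 in 24 members, 22 higher and 2 lower, where 17.9% of all genes were higher, 17.5% lower and 35.5% called. RRM2 was 2.29 ± 0.10 higher in KD2 than in KD1 (adjusted p = 3.1e-14), TK1 1.64 ± 0.11 (adjusted p = 3.6e-11), SAMHD1 0.85 ± 0.10 (adjusted p = 5.7e-07), SLC29A2 0.81 ± 0.08 (adjusted p = 7.3e-08) and CAD 0.51 ± 0.08 (adjusted p = 2.8e-05). PRPS1 and UCK1 were the members lower in KD2, with log2 fold changes of -0.36 ± 0.06 and -0.25 ± 0.08; the call of UCK1 was lost without KD1 replicate 1 (adjusted p = 0.061) or KD2 replicate 3 (0.066). NT replicate 2 is in neither of these groups, but it enters the spread estimated in the shared fit of 12 libraries. With KD2 and KD1 fitted alone, 31 members were called, 28 higher and 3 lower. The genes called were then 8080, against 6868 in the main fit.

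Other genes of nucleotide handling were listed by pathway, and their counts in KD2 against NT stand beside the 17.8% of all genes that rose and 18.2% that fell. Of 15 further nucleotide kinases, 2 rose and 1 fell. AK5 stood at 0.66 ± 0.16 (adjusted p = 0.0018) and the mitochondrial UMP-CMP kinase CMPK2 at 0.67 ± 0.19 (adjusted p = 0.0086). CMPK2 had 13.2, 11.0 and 7.51 CPM in KD2 and 5.09, 6.74 and 8.31 CPM in NT, so that KD2 and NT overlapped. Of 16 nucleotidases, hydrolases and pool-cleaning enzymes, 3 rose and 3 fell. Among them, ENTPD5, a UDP-hydrolysing enzyme of the endoplasmic reticulum, averaged 197 ± 4.82 CPM in KDR, 92.2 ± 2.41 in KD2, 222 ± 5.36 in KD1 and 208 ± 13.9 in NT (-1.18 ± 0.06 in KD2 against NT, adjusted p = 1.9e-13). NUDT1, which clears oxidised purine nucleotides, rose by 0.79 ± 0.14 (adjusted p = 8.0e-05).

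Of 11 tested genes of other salvage, breakdown and transport, out of 21 listed, 4 rose and 2 fell. XDH, xanthine oxidoreductase, which ends purine breakdown in urate, averaged 6.01 ± 0.548 CPM in KDR, 22.2 ± 2.19 in KD2, 4.09 ± 1.15 in KD1 and 3.92 ± 0.623 in NT (SD, n = 3 each). It rose by 2.50 ± 0.17 in KD2 over NT (adjusted p = 5.3e-11), beside 2.34 for RRM2. ADSS1, the paralog of ADSS2, stood at -1.16 ± 0.18 in KD2 against NT (adjusted p = 1.6e-05), opposite to ADSS2, and SLC25A33, a mitochondrial pyrimidine nucleotide carrier, at -0.65 (adjusted p = 4.1e-08).

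The 13 genes that supply folate units to thymidylate and purine synthesis had 3 higher and 6 lower. Among those named here, MTHFD1 (0.47 ± 0.07, adjusted p = 6.9e-06) and GGH (0.64 ± 0.08, adjusted p = 1.6e-06) rose in KD2 over NT. ALDH1L1, which disposes of formyl folate, averaged 3.69 ± 0.835 CPM in KDR, 0.279 ± 0.265 in KD2, 8.33 ± 1.17 in KD1 and 9.72 ± 1.99 in NT (adjusted p = 2.5e-11 in KD2 against NT), and mitochondrial MTHFD2 fell to 275 ± 16.7 CPM in KD2, against 361 ± 19.8 CPM in NT (-0.39 ± 0.06, adjusted p = 4.9e-06). Of 11 tested users of UTP and CTP, 1 rose and 3 fell, with CDS1, which spends CTP on phospholipid synthesis, at 31.7 ± 1.10 CPM in KD2 and 91.5 ± 8.86 CPM in NT (-1.53 ± 0.07, adjusted p = 1.7e-13).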

How the data were processed

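RNA of 12 libraries was poly-A selected and sequenced as read pairs, per the labels. The authors deposited raw counts per gene, made per the file headers with featureCounts 1.6.4 on exons of Ensembl release 111 (GRCh38), with no option for strand, pairs or multiple mapping. FastQC, cutadapt and HISAT2 appear in the submitters' processing notes (versions not given in the sources used here). Each read end was thus counted alone, and reads shared by overlapping genes or near-identical copies, such as pseudogenes of RRM2, were not counted.

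All 46 symbols matched 1 gene each. The members and lists were chosen with earlier results of these data known. Counts were tested with edgeR 4.0.16 (R 4.3.3): filterByExpr, TMM scaling, 1 quasi-likelihood fit of the 12 libraries by group, and Benjamini-Hochberg adjustment over the 19373 genes tested, with calls at adjusted p under 0.05; errors of log2 fold changes are SE. The labels do not say whether libraries came from separate cultures, so p-values cover only the spread between these libraries, perhaps a technical one. CPM are scaled by TMM. Values per library are given for DHODH, CAD and UMPS and, per class, up to 3 called members with the largest absolute log2 fold change over KD2 against NT and KDR against KD2 and a mean of at least 1 CPM. Paralogs are given by group means. Up to 4 genes of each other list were named by adjusted p; other members were named after their values were seen.

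The fit was tested on simulated data. Alternatives were edgeR with DESeq2 size factors, DESeq2 1.42.0, no filter on low counts, at least 1 CPM in 3 libraries, fitting the compared groups alone, a replicate block, requiring an absolute log2 fold change of 1 or more, and leaving out each library.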

Additional observations from a re-analysis of the deposited data

Results flagged for a closer look

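The effects of the labels KD2 and KD1 differed in 24 of the 45 members when the groups were tested against each other (edgeR, adjusted p under 0.05), with 22 higher and 2 lower in KD2. This is 53.3% of the members, where 35.5% of all genes tested were called. At a mean of at least 10 CPM, 59% of members and 48.9% of genes were called. RRM2 averaged 51.3 ± 2.57 CPM in KD2 and 10.5 ± 1.07 CPM in KD1, and TK1 43.2 ± 2.92 CPM in KD2 and 13.9 ± 1.38 CPM in KD1 (SD, n = 3 each). DHODH RNA averaged 13.1 ± 1.73 CPM in KD2 and 10.3 ± 0.674 CPM in KD1 (log2 fold change 0.34 ± 0.14, adjusted p = 0.07; 0.43 and adjusted p = 0.04 without KD2 replicate 1).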

How the results depend on the processing

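Member counts called moved little: 22 to 31 in KD2 against NT (main 26), 20 to 26 in KDR against KD2 (main 24), 9 to 15 in KDR against NT (main 12), 0 in KD1 against NT and 22 to 31 in KD2 against KD1 (main 24), over all alternatives but the minimum fold. Requiring an absolute log2 change of 1 or more, they were 2, 0, 1 and 2 in KD2 against NT, KDR against KD2, KDR against NT and KD2 against KD1, and the genes called 1796, 1683, 1250 and 1732. Over all alternatives but the minimum fold, the genes called ran from 5658 to 7582 in KD2 against NT (main 6958). They numbered 5093 to 7986 in KDR against KD2 (main 6285) and 4170 to 6180 in KDR against NT (main 5337). Without the filter on low counts, 23 genes were called in KD1 against NT. In KD2 against KD1 the genes called numbered 5856 to 8080 (main 6868). Of 18 pairs of same-numbered libraries, 1 had a residual correlation over 0.1 (range -0.06 to 0.12). No strong shared effect was thus seen. Whether a number pairs libraries is not said in the labels and cannot be told from these correlations. With the replicate number as a block, 25, 24, 11, 0 and 25 members were called in the 5 comparisons in the order above. The genes called were then 6882, 6190, 5219, 0 and 6789. With that block, UMPS in KD2 against NT (adjusted p = 0.058) and TYMS in KDR against NT (0.052) lost their calls. Of the 51 called values of the 17 members given per library, 40 of 612 alternatives lost the call, in 9 values, and none reversed.

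Of their 34 values that were not called, 17 changed sign in some alternative, and the cause was not tested. In the main fit these 17 lay between -0.13 (SLC29A1) and 0.16 (ADA), both in KD1 against NT. With no single library left out, SLC29A2 changed sign to 0.0114 (minimum of 1 CPM) and 0.0001 (only the groups compared) in KDR against KD2. In KD1 against NT it changed sign to 0.0022 (DESeq2 and its size factors), 0.0156 (no filter), 0.0013 (block) and 0.0087 (only the groups compared). Leaving out 1 library, the log2 fold changes ran in KD1 against NT from -0.0007 to 0.3623 for ADA, -0.2128 to 0.0541 for AMPD2, -0.1253 to 0.1873 for DHODH, -0.0709 to 0.0159 for GART, -0.1338 to 0.0025 for PFAS, -0.0172 to 0.1955 for PNP, -0.1062 to 0.2331 for PPAT, -0.0410 to 0.1315 for RRM2, -0.2307 to 0.0693 for SLC29A1, -0.0741 to 0.1179 for SLC29A2 and -0.1676 to 0.0854 for TYMS. In KDR against NT they ran from -0.0722 to 0.1325 for CAD, -0.0321 to 0.1827 for PNP, -0.0661 to 0.2730 for PPAT, -0.2166 to 0.0855 for SLC29A1 and -0.0360 to 0.0586 for UMPS, and in KDR against KD2 from -0.0296 to 0.0352 for SLC29A2. UPP1, DPYD, NME2 and ADA had 20 to 178 counts a library, which limits the precision of their values.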
